A study of Mus musculus with 4 samples.

Results

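The presynaptic vesicle release machinery is described here by 30 genes that were chosen by name for their role in the synaptic vesicle cycle, and all 30 were found by gene symbol among the 55573 Ensembl genes counted in each library. RNA had been sequenced from tdTomato-positive cells of the mouse basal telencephalon at E16 (insemination on E1), which had been enriched on a fluorescence-activated cell sorter. All embryos carried *Hmx3-Cre*, which drives recombination in cells of the *Hmx3* lineage of the preoptic area (POA), and the *tdTomato* reporter. The *Dnmt1* KO group (2 libraries) in addition carried the floxed *Dnmt1 loxP2* allele, from which Cre removes exons 4 and 5 and leaves a null allele, and the *Dnmt1* WT group (2 libraries) was wild type at *Dnmt1*. Cells were pooled from 12 WT and 6 KO embryos. The sample labels call the libraries biological replicates while the study's methods describe technical duplicates of pools, so that errors and p-values measure the spread between libraries, which may be technical.

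Neurons release transmitter when a vesicle protein (a VAMP) and plasma membrane proteins (syntaxin and SNAP25) zip together into a SNARE complex that fuses both membranes. Synaptotagmins sense the calcium that triggers fusion, active zone scaffolds hold primed vesicles close to calcium channels, and dynamin, amphiphysin, synaptojanin and endophilin take the membrane back. Many of these genes are transcribed in immature neurons before synapses form, when the same proteins serve membrane addition at growing processes. Several also have paralogues that are used outside neurons.

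The counts summed to between 8075102 and 9995968 per library, and intervals cover counting and library spread only, not the spread between embryos. The targeted gene *Dnmt1* had 3103 and 4557 counts in WT against 2383 and 2552 in KO, and its log2 fold change of -0.56 was just outside the threshold (edgeR adjusted p = 0.0511). *Dnmt1* passed in 7 of the 8 alternative fits on all libraries (adjusted p = 0.00018 to 0.0467) and did not with library size as the only scaling (0.151) or without KO replicate 1 (0.386) or KO replicate 2 (0.521), where its log2 fold change was still -0.55 in each. Gene-level counts include the exons outside the deleted ones, so that they check the labels only in part. WT replicate 1 stood apart by its mitochondrial rRNA, which took 8.66% of its counts against 1.51% to 2.32% in the other libraries. Markers of the labelled cell type were present in every library, with 633 and 919 counts of *Hmx3* in WT and 604 and 851 in KO, and 1287 and 1552 counts of the GABA-synthesising enzyme gene *Gad1* in WT and 1066 and 1159 in KO.

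All 30 release genes passed the filter on low counts, and 27 of them did not pass the test between genotypes. *Vamp1* was higher in KO and the synaptotagmin genes *Syt1* and *Syt4* were lower. Genotypes were compared by edgeR's quasi-likelihood test with Benjamini-Hochberg adjustment over 16832 genes, of which 7.90% were called at an adjusted p under 0.05, 7.33% higher and 0.570% lower in KO. At an unadjusted p under 0.05, 5 of the 30 genes were lower and 1 was higher, against 8.01% and 14.6% of all tested genes. The log2 fold changes of the 30 genes had a median of -0.21, against -0.03 over all tested genes, and 23 of the 30 were below 0, against 52.4% of all tested genes. Without KO replicate 1 the median of the 30 genes was -0.07, against -0.004 over all genes, with 17 below 0. It was -0.28 against -0.03 without KO replicate 2 (24 below 0), -0.13 against 0.03 without WT replicate 1 (22 below 0) and -0.15 against 0.006 without WT replicate 2 (22 below 0), so that KO replicate 1 was the library whose omission narrowed the gap most. The KO libraries were both below the WT libraries for 14 genes and both above them for 6, and the genotypes overlapped for 10. Over all tested genes, 25.2% had both KO libraries below both WT libraries and 28.3% had both above, and 7835 of 16832 overlapped. Most differences were small, and 24 of the 30 genes had a log2 fold change within 0.5 of 0, as had 11365 of the 16832 tested genes. For 23 genes the 95% interval of the log2 fold change lay between -1 and 1, so that a doubling was outside it in either direction. The same held for 8891 of the 16832 tested genes. In bulk RNA, fewer cells of a type and less RNA per cell cannot be told apart.

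**Figure D1:**
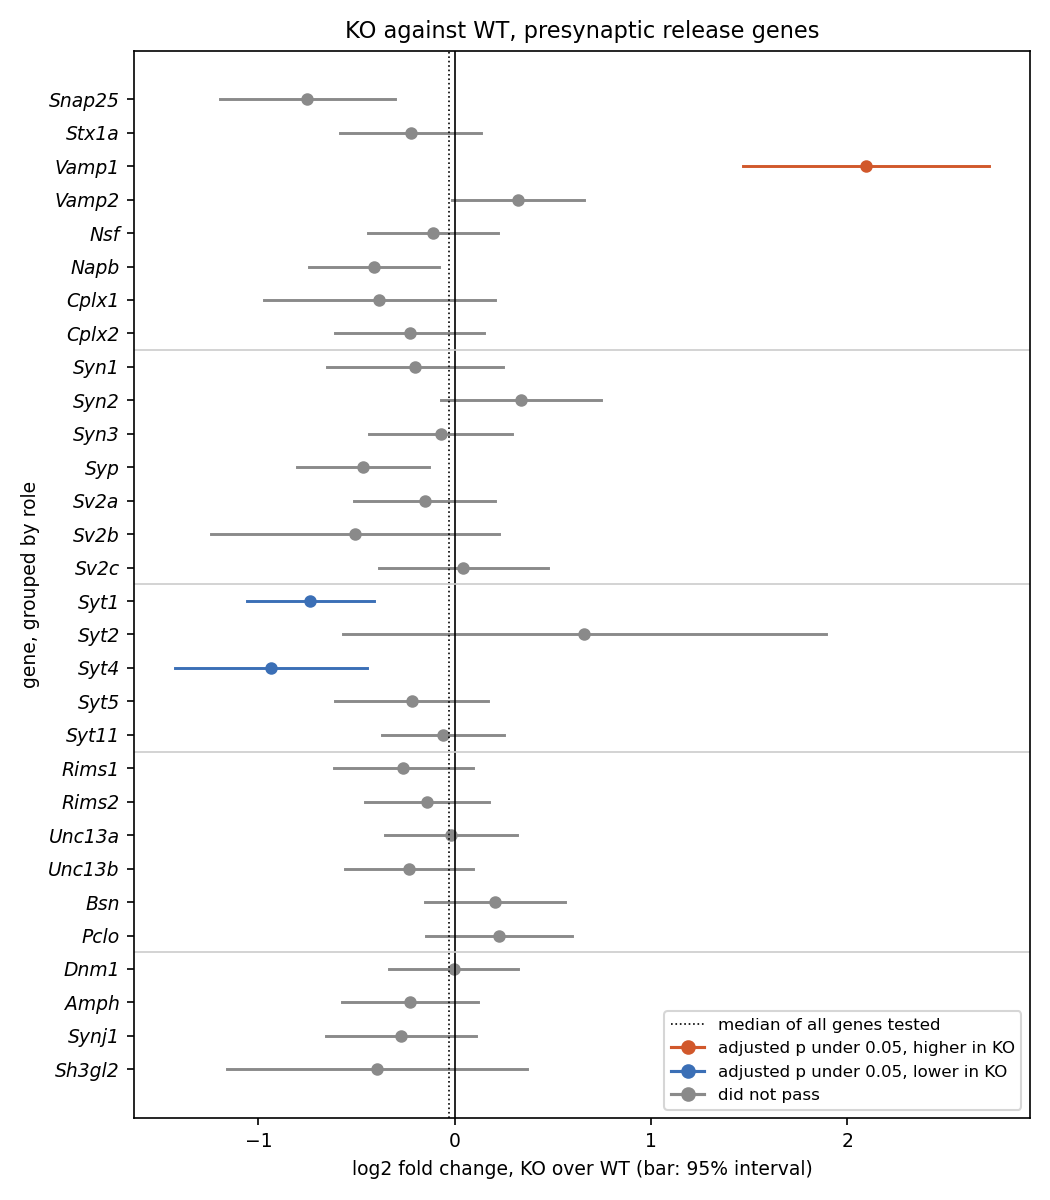
Log2 fold change of each of the 30 release genes, KO over WT, with its 95% interval from the edgeR fit. *Vamp1* (2.10) lies far to the right of the others, *Syt4* (-0.94) and *Syt1* (-0.73) are the called decreases, and most of the remaining intervals span 0. The genes are grouped by role from top to bottom as SNARE fusion, vesicle membrane, synaptotagmins, active zone and endocytosis.

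Compared per length, as RPKM (CPM divided by the kilobases of annotated exons), most of the machinery was well expressed in these embryonic cells. In WT, 21 of the 30 genes had a mean above 10 RPKM and 22 lay above the median of the tested protein-coding genes. *Syt11* was the most abundant with 68.3 ± 2.39 RPKM (SD, n = 2) in WT, followed by *Sv2a* with 36.4 ± 0.952 RPKM, *Syt4* with 34.1 ± 8.58, *Syt5* with 32.4 ± 2.77 and *Syt1* with 28.2 ± 2.36 RPKM. The WT libraries of *Syt4*, at 40.15 and 28.02 RPKM, lay so far apart that its place relative to *Sv2a*, *Syt5* and *Syt1* was not resolved. At the lower end stood *Syt2* with 0.229 RPKM, *Vamp1* with 0.645, *Sv2b* with 1.075 and *Sh3gl2* with 1.43 RPKM in WT. CPM are counts scaled to a common library size with TMM factors, and the plot of CPM in each library shows the same genes without the length correction.

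**Figure D2:**
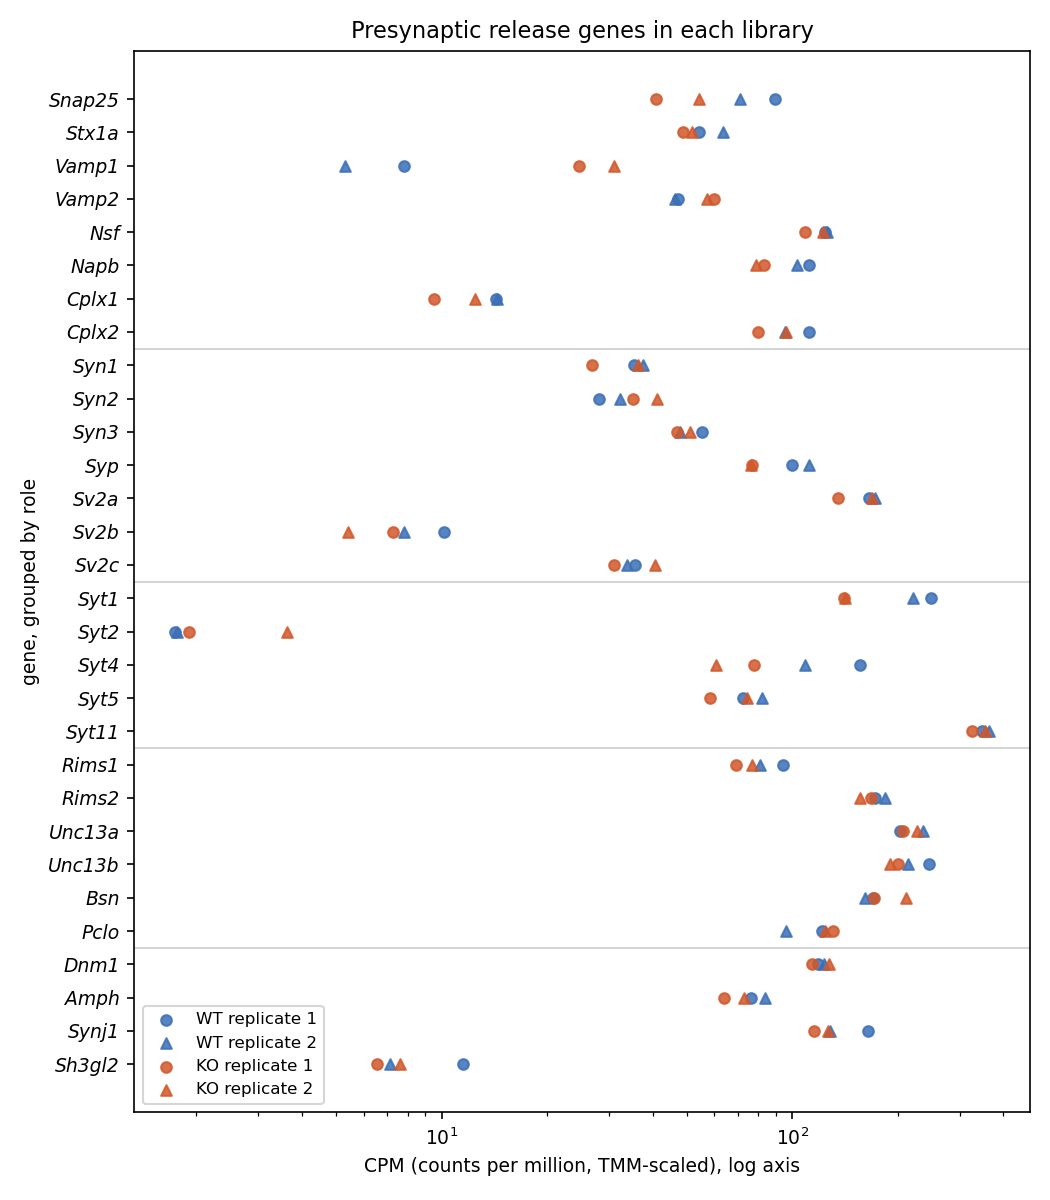
CPM of the 30 release genes in the 4 libraries on a log axis, with circles for replicate 1 and triangles for replicate 2, WT in blue and KO in orange. *Vamp1* shows the widest gap between genotypes, with WT at 5.29 and 7.82 CPM and KO at 24.7 and 30.9 CPM, while *Syt11* and *Dnm1* overlap.

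Among the synaptotagmins, *Syt1* encodes the calcium sensor of fast synchronous release. It had 2003 and 2254 counts in WT against 1180 and 1288 in KO, or 249 and 221 CPM in WT and 140 and 142 CPM in KO. Both KO libraries were far below both WT libraries and nearly equal to each other. On the log2 scale *Syt1* fell by 0.73 in KO (standard error 0.14, edgeR adjusted p = 0.0150). It was between -0.74 and -0.62 in the 8 alternative fits on all libraries, with adjusted p-values from 5.41e-05 to 0.0275. With 1 KO library left out, the log2 fold change of *Syt1* was -0.71 without KO replicate 1 and -0.74 without KO replicate 2, but the test on 3 libraries did not pass (adjusted p = 0.178 and 0.204).

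*Syt4*, on the minus strand of chromosome 18, encodes a synaptotagmin whose calcium binding differs from that of *Syt1* and which is found on dense-core vesicles and on membranes outside the nerve terminal. Its counts were 1259 and 1113 in WT and 655 and 551 in KO. These correspond to 156 and 109 CPM in WT and 77.9 and 60.7 CPM in KO, so that KO was lower in both libraries although the WT libraries lay apart from each other. On the log2 scale *Syt4* fell by 0.94 (standard error 0.21, edgeR adjusted p = 0.0333), and its difference was -0.71 after correction of each library for gene length and GC content (adjusted p = 0.00121). Without KO replicate 2 it was -0.76 and did not pass (adjusted p = 0.185). The antisense gene *Gm26658* overlaps 14.5% of the exonic bases of *Syt4*, and it had 4 counts in WT replicate 1 and 0 in the other libraries.

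The other synaptotagmins did not pass. *Syt11*, which encodes a synaptotagmin that does not bind calcium, had 2792 and 3717 counts in WT against 2742 and 3230 in KO, and its log2 fold change was -0.06 with a 95% interval from -0.37 to 0.25. *Syt5* had 584 and 835 counts in WT against 491 and 674 in KO (log2 fold change -0.22, 95% interval -0.61 to 0.17). For *Syt11* and *Syt5* the genotypes overlapped. *Syt2*, the calcium sensor of many fast-spiking interneurons and hindbrain neurons in the mature brain, had 14 and 18 counts in WT against 16 and 33 in KO, and at this depth its interval of -0.57 to 1.89 covered both directions. As a share of the summed RPKM of these 5 synaptotagmins, *Syt4* made up 24.0% and 17.6% in WT and 16.1% and 11.8% in KO, *Syt1* 17.8% and 16.6% in WT and 13.5% and 12.8% in KO, and *Syt11* 39.8% and 44.0% in WT and 50.4% and 51.5% in KO.

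The SNARE fusion group held the called increase. *Vamp1*, which lies on the plus strand of chromosome 6 of GRCm38 from 125215551 to 125245964, encodes synaptobrevin 1, the vesicle SNARE that predominates in motor neurons and brainstem of the adult, and *Vamp2* encodes the synaptobrevin of most forebrain terminals. *Vamp1* had 63 and 54 counts in WT against 208 and 281 in KO. At 7.82 and 5.29 CPM in WT and 24.7 and 30.9 CPM in KO, the genotypes were well separated. *Vamp1* rose by 2.10 on the log2 scale (standard error 0.27, edgeR adjusted p = 0.00219), a 4.28-fold difference. It stayed between 1.82 and 2.39 when each library was left out and passed in every one of these fits. *Vamp2* had 381 and 472 counts in WT against 505 and 518 in KO. KO was above WT in both libraries, with a log2 fold change of 0.32 that did not pass (95% interval -0.01 to 0.66, adjusted p = 0.235). *Vamp2* remained the more abundant of both per length, and *Vamp1* made up 5.83% and 4.11% of their summed RPKM in WT and 13.4% and 16.9% in KO.

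The 250 bases before the start of *Syt1* and of *Vamp1* are shown because *Syt1* was called lower and *Vamp1* higher in KO. The capitals mark each CG, the dinucleotide that DNMT1 methylates. They were taken from RefSeq on GRCm38.p6, the first for the more distal of 2 starts of *Syt1* (chr10:109010976-109011225, minus strand) and the second for *Vamp1* (chr6:125215331-125215580, plus strand). DNA methylation was not analysed here, and no link between these windows and the differences in RNA was tested.
Syt1: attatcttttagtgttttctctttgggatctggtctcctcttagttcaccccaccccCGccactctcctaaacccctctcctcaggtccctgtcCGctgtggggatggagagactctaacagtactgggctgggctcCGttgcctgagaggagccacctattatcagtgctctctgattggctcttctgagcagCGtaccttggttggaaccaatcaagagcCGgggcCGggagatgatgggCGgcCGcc
Vamp1: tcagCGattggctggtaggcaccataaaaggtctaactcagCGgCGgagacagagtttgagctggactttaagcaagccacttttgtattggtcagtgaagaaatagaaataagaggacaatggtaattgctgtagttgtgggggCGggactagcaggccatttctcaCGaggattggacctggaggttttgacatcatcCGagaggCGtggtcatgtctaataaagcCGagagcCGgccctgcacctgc

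The window of *Syt1* shown holds 8 CG, that of *Vamp1* 9, and the window of the more proximal start of *Syt1* holds 5. A RefSeq window was found for 24 of the 30 genes, with 31 windows in all and a median of 15 CG in the 250 bases, against a median of 6 over all 32851 windows. *Bsn* had the most with 32 and 1 window of *Sv2b* had 0.

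*Snap25*, on the plus strand of chromosome 2 from 136713453 to 136782428, encodes the plasma membrane SNARE that is cleaved by several botulinum neurotoxins. It had 720 and 724 counts in WT against 344 and 493 in KO, or 89.4 and 70.9 CPM in WT and 40.9 and 54.3 CPM in KO. Both KO libraries were lower than both WT libraries, and the log2 fold change of -0.75 (standard error 0.19) was just outside the threshold (edgeR adjusted p = 0.0550). DESeq2 placed it inside (adjusted p = 0.0130), and after correction for gene length and GC content the log2 fold change was -0.41 (adjusted p = 0.190). The GC content of the longest *Snap25* transcript, 38.7%, is the lowest of the 30 genes, and that of *Syt4*, 40.7%, is the next lowest. With 1 library left out, *Snap25* did not pass without KO replicate 1 (log2 fold change -0.55, adjusted p = 0.464) and passed in the other 3 fits, with log2 fold changes of -0.96 to -0.58.

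The other SNARE fusion genes had values closer to 0. *Stx1a*, the syntaxin partner of *Snap25*, had 54.1 and 63.4 CPM in WT and 48.9 and 51.9 CPM in KO (log2 fold change -0.22, adjusted p = 0.437). *Nsf*, which encodes the ATPase that takes used SNARE complexes apart, had a log2 fold change of -0.11 with a 95% interval of -0.44 to 0.22. The largest difference among the remaining genes was that of *Napb*, the adaptor that brings NSF to the SNARE complex, with 112 and 103 CPM in WT and 82.9 and 79.0 CPM in KO. *Napb* was lower in both KO libraries, and its log2 fold change of -0.41 did not pass (95% interval -0.74 to -0.08, adjusted p = 0.139). The complexins, which clamp partly assembled SNARE complexes, were measured as *Cplx1* (115 and 147 counts in WT, 80 and 113 in KO, log2 fold change -0.38) and *Cplx2* (898 and 971 counts in WT, 673 and 873 in KO, log2 fold change -0.23). Neither passed, and *Cplx2* overlapped between genotypes.

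None of the 7 genes of vesicle membrane proteins and synapsins passed (smallest edgeR adjusted p = 0.105, with 1 of the 7 at an unadjusted p under 0.05 and 0 called by DESeq2). That gene was *Syp*, which encodes synaptophysin, the most widely used marker of synaptic vesicles. *Syp* had 802 and 1141 counts in WT against 645 and 695 in KO, and 99.5 and 112 CPM in WT against 76.7 and 76.5 CPM in KO. Both KO libraries were below both WT libraries and almost equal to each other (log2 fold change -0.46, 95% interval -0.80 to -0.13). The antisense gene *Gm14703* covers 16.8% of the exonic bases of *Syp* and had between 2 and 11 counts per library.

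The synapsins bind vesicles to the cytoskeleton in the reserve pool. *Syn1* had 35.5 and 37.4 CPM in WT and 26.9 and 36.4 CPM in KO (log2 fold change -0.20), *Syn2* 28.2 and 32.2 CPM in WT and 35.2 and 41.2 CPM in KO (log2 fold change 0.34, adjusted p = 0.300), and *Syn3* 55.2 and 47.7 CPM in WT and 46.8 and 51.1 CPM in KO (log2 fold change -0.07). *Syn2* was therefore the only one of the 3 synapsin genes that was higher in both KO libraries. Within the summed RPKM of the 3 synapsins, *Syn2* made up 20.8% and 23.1% in WT and 29.5% and 27.8% in KO. *Timp3*, which lies inside *Syn3* on the opposite strand and overlaps 14.1% of its exonic bases, had 170 and 161 counts in WT against 539 and 664 in KO, and *Timp4*, which overlaps 1.28% of the exonic bases of *Syn2*, had 64 and 126 counts in WT against 407 and 398 in KO. Since the strand setting of the counting is not given in the sources used here, their part in the counts of *Syn3* and *Syn2* was not tested.

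The SV2 glycoproteins are transporter-like vesicle proteins, and *Sv2a* encodes the binding site of the antiepileptic drug levetiracetam. *Sv2a* had 166 and 172 CPM in WT and 135 and 169 CPM in KO (log2 fold change -0.15), and it made up 88.0% and 89.4% of the RPKM of the SV2 family in WT and 87.7% and 88.3% in KO. *Sv2c* overlapped between genotypes with a log2 fold change of 0.05 (95% interval -0.38 to 0.47). *Sv2b* was low, with 82 and 80 counts in WT against 61 and 49 in KO, and its interval was wide (log2 fold change -0.51, 95% interval -1.24 to 0.22).

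The 6 active zone genes differed little between genotypes. Their log2 fold changes were between -0.26 and 0.23, none passed (smallest edgeR adjusted p = 0.354, with 0 genes at an unadjusted p under 0.05 and 0 of the 6 called by DESeq2), and all 6 had 95% intervals between -1 and 1. *Unc13a* and *Unc13b* encode Munc13 proteins, which open syntaxin to prime vesicles. *Unc13a* had 204 and 235 CPM in WT and 207 and 227 CPM in KO (log2 fold change -0.02, 95% interval -0.35 to 0.32), and *Unc13b* had 245 and 215 CPM in WT and 201 and 190 CPM in KO (log2 fold change -0.23). The KO libraries of *Unc13a* lay between the WT libraries, while those of *Unc13b* lay below them. *Rims1* and *Rims2*, scaffolds that tie vesicles to calcium channels, had log2 fold changes of -0.26 and -0.14 with KO below WT in both. The giant scaffold genes *Bsn* (Bassoon) and *Pclo* (Piccolo), whose products also recruit each other, were the 2 genes of this group with KO above WT. *Bsn* had 170 and 162 CPM in WT and 171 and 211 CPM in KO (log2 fold change 0.21), and *Pclo* 121 and 96.1 CPM in WT and 131 and 124 CPM in KO (log2 fold change 0.23), and the higher WT library and the lower KO library were close in each. *Bsn* had a log2 fold change of 0.36 without KO replicate 1 and 0.05 without KO replicate 2. *Pclo* passed without WT replicate 1 (log2 fold change 0.40, adjusted p = 0.0443) and had a log2 fold change of 0.06 without WT replicate 2.

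The 4 endocytosis genes all had log2 fold changes below 0 and none passed (smallest edgeR adjusted p = 0.373, with 0 genes at an unadjusted p under 0.05 and 0 of the 4 called by DESeq2). *Dnm1*, which encodes the neuronal dynamin that cuts vesicles from the membrane, had 118 and 123 CPM in WT and 114 and 127 CPM in KO, and its log2 fold change of -0.004 had a 95% interval of -0.33 to 0.32. With library size as the only scaling it was 0.10. *Amph*, which recruits dynamin to the neck of the vesicle, had 76.5 and 83.9 CPM in WT and 64.0 and 72.9 CPM in KO (log2 fold change -0.23). *Synj1*, the phosphatase that sheds the clathrin coat, had 164 and 128 CPM in WT and 116 and 126 CPM in KO (log2 fold change -0.27). *Synj1* depended on the WT library, with -0.09 without WT replicate 1 and -0.45 without WT replicate 2, where it passed (adjusted p = 0.0114). *Sh3gl2*, which encodes endophilin A1, had only 55 to 93 counts per library and overlapped between genotypes (log2 fold change -0.39, 95% interval -1.16 to 0.37). When a library was left out, the log2 fold change of *Sh3gl2* ranged from -0.72 to -0.02.

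The repressor REST binds the RE1 element and keeps neuronal genes, *Syn1* among them, off outside neurons. RE1 parts were searched on both strands in the RefSeq windows from 250 bases before to 50 bases after each start, as TTCAGCACC for the left part and GGACAGC for the right part. The left part was found in the windows of *Syn1* and *Unc13a*, that is in 2 of 31 windows, and in 0.371% of all 32851 windows. The right part was found in 1 of the 31 windows, that of *Unc13a*, and in 6.56% of all windows. Both stretches are given 5′ to 3′ on the strand of the gene, with the matched letters in capitals. That of *Syn1* lies at chrX:20921129-20921158 and that of *Unc13a* at chr8:71671724-71671753, both on the minus strand, and in *Unc13a* both parts read from the other strand.
Syn1: ctgtcggaTTCAGCACCgcggtcagagcct
Unc13a: ggcGCTGTCCgcgcccccGGTGCTGAAgcg

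The log2 fold changes of these genes were -0.20 for *Syn1* and -0.02 for *Unc13a*, and neither passed. The cAMP response element TGACGTCA was found in 2 of the 31 windows, those of *Syn1* and *Sh3gl2*, and in 1.79% of all windows, and the GC box GGGCGG in 19 of the 31 windows and in 35.7% of all windows. A match describes the letters of the window and not a bound site.

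The same comparison was read out for 86 further genes of the vesicle cycle in 4 groups, of which 84 were tested. Of these 84 genes, 6 were higher and 1 was lower in KO, beside 7.33% higher and 0.570% lower over all tested genes. The count of higher genes was near that background. The count of lower genes depended on the fit, with 4.76% of the list against 1.47% of all genes in DESeq2, and 11.9% against 3.68% with the replicate block. Log2 fold changes of the 84 genes had a median of -0.20, against -0.21 for the 30 release genes, and 63 were below 0. The increases included paralogues of release genes.

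**Figure D3:**
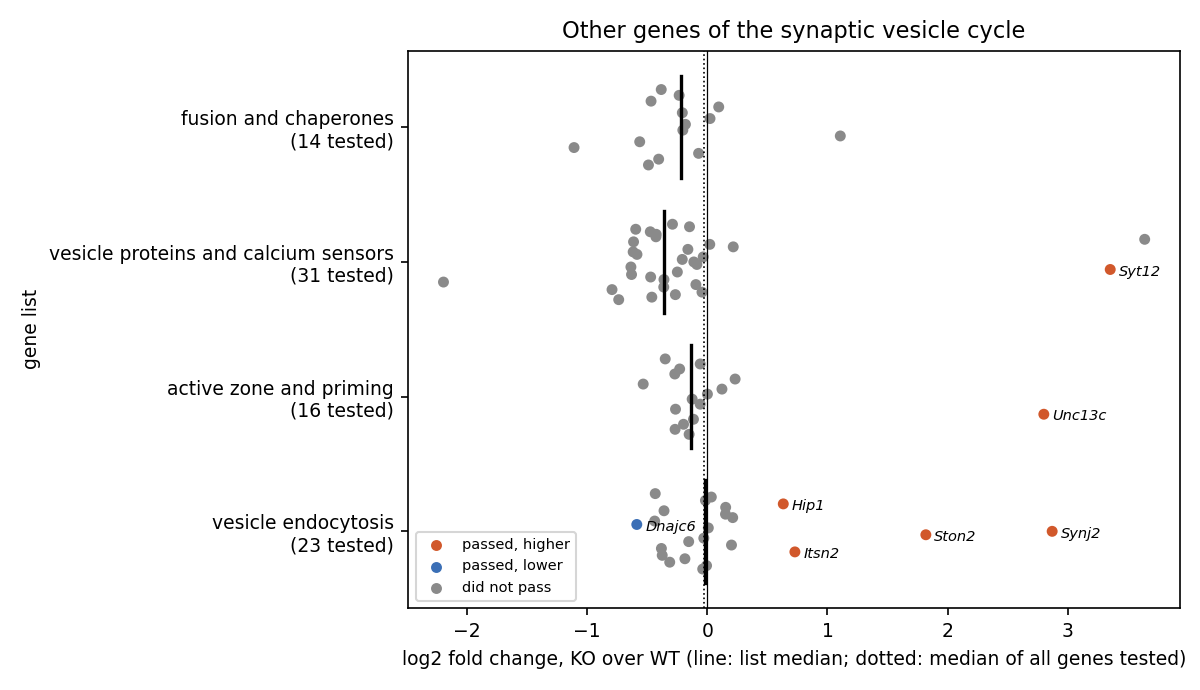
Log2 fold change of 84 further vesicle cycle genes in 4 groups, each point 1 gene, with the group median as a black line and the median of all tested genes dotted. Most points lie left of 0, while *Syt12*, *Unc13c*, *Synj2* and *Ston2*, all called, stand apart on the right with log2 fold changes of 1.82 to 3.35, and the point at 3.64 is *Sncg*, which had 0 to 16 counts per library and was not called.

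In the active zone and priming group, *Unc13c*, which encodes the Munc13 known from cerebellar granule cells, was the 1 gene called of 16, beside 7.33% called higher over all tested genes. It had 46 and 54 counts in WT against 319 and 352 in KO. Both KO libraries were far above WT, and *Unc13c* rose by 2.80 on the log2 scale (standard error 0.21, edgeR adjusted p = 9.53e-05). *Unc13c* made up 2.36% and 2.10% of the RPKM of the 3 Munc13 genes in WT and 14.6% and 14.3% in KO, next to the nearly level *Unc13a*. Of the 31 vesicle proteins and calcium sensors, *Syt12*, which encodes a synaptotagmin that does not bind calcium, was the 1 gene called. In this group 27 of 31 log2 fold changes were below 0 (median -0.36), against 52.4% of all tested genes. DESeq2 called 1 higher and 2 lower, where 1.47% of all tested genes were lower. The replicate block called 2 higher and 6 lower, where 3.68% were lower. *Syt12* had 4 counts in each WT library and 38 and 43 in KO (log2 fold change 3.35, 95% interval 2.10 to 4.61, adjusted p = 0.00701), and a processed transcript on the opposite strand overlaps 17.2% of its exonic bases.

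Of the 23 endocytosis genes, 4 rose and 1 fell, where 7.33% of all tested genes were called higher and 0.570% lower. *Synj2*, the more widely expressed synaptojanin, had 20 and 19 counts in WT against 133 and 144 in KO (log2 fold change 2.87, edgeR adjusted p = 0.000896), and its share of the summed RPKM with *Synj1* was 1.45% and 1.39% in WT and 11.7% and 10.9% in KO. *Ston2*, the adaptor that retrieves synaptotagmin from the membrane, had 109 and 115 counts in WT against 361 and 403 in KO (log2 fold change 1.82, adjusted p = 0.000664). *Itsn2*, a scaffold of clathrin-coated pits, and *Hip1*, a clathrin-binding protein, were higher by 0.73 and 0.63 on the log2 scale (adjusted p = 0.0246 and 0.0332). The decrease was in *Dnajc6*, which encodes auxilin, the neuronal co-chaperone that strips clathrin from vesicles. *Dnajc6* had 823 and 1112 counts in WT against 594 and 635 in KO (log2 fold change -0.59, adjusted p = 0.0435). *Itsn2*, *Hip1* and *Dnajc6* did not pass without KO replicate 1 or without KO replicate 2, although their log2 fold changes were then 0.75 and 0.73, 0.73 and 0.55, and -0.58 and -0.58, and *Dnajc6* did not pass with library size as the only scaling (adjusted p = 0.143).

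None of the 14 tested genes of fusion factors and chaperones passed (smallest edgeR adjusted p = 0.0934, with 5 genes at an unadjusted p under 0.05, and 0 called by DESeq2). With the replicate block, 2 of the 14 were lower and 0 higher, where 3.68% of all tested genes were lower. *Cplx3* and *Cplx4*, the complexins of retinal ribbon synapses, had 0 counts in all 4 libraries, where 3 counts would be 0.294 to 0.372 CPM.

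**Figure D4:**
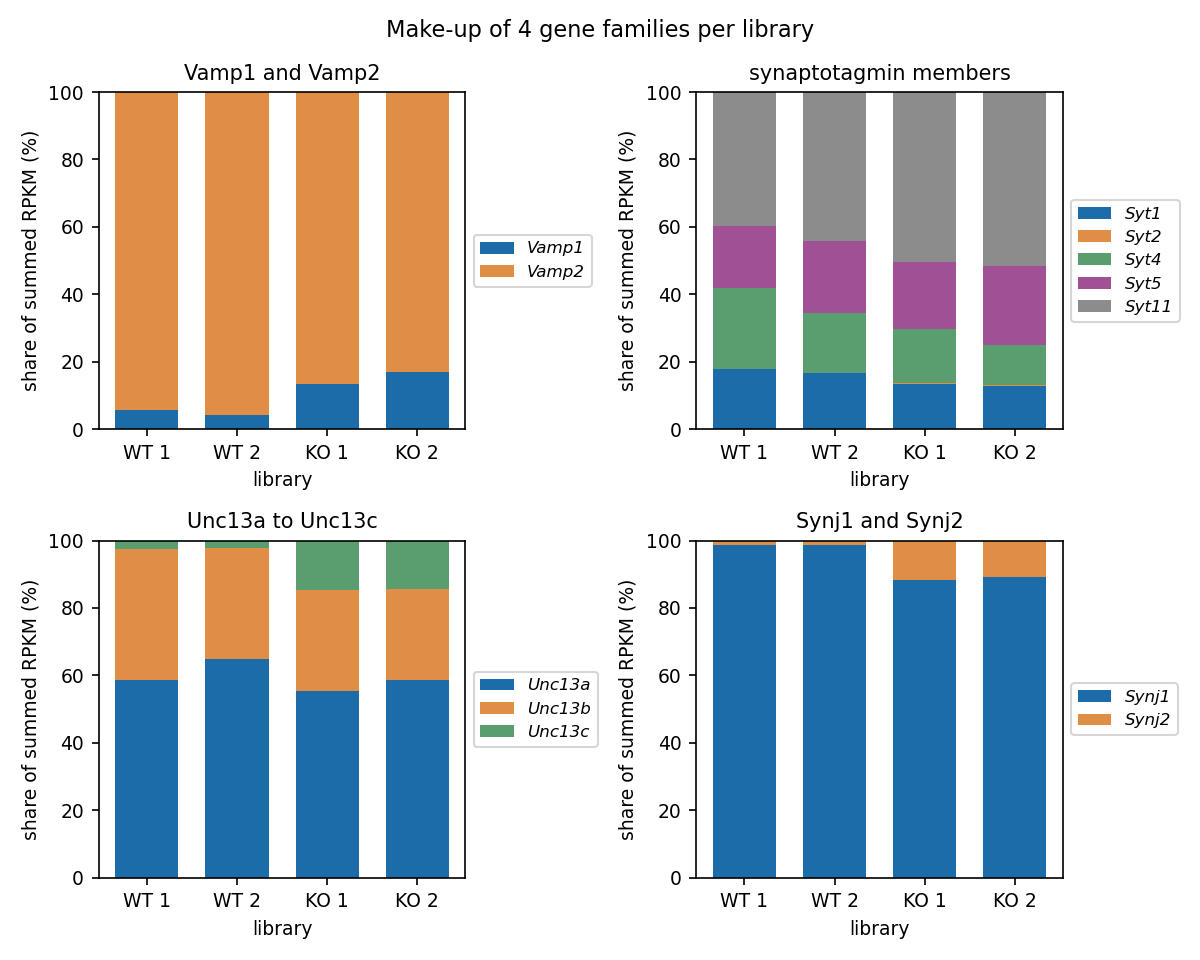
Share of each paralogue in the summed RPKM of its family in each library, stacked to 100%. In KO the bars of *Vamp1*, *Unc13c* and *Synj2* are taller than in WT and those of *Syt1* and *Syt4* shorter, while *Vamp2*, *Unc13a* and *Synj1* remain the most abundant of their families.

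Markers of other cell types moved with the genotype beside these genes. Over all tested genes, 7.33% were called higher and 0.570% lower in KO. Of 10 astrocyte markers 9 were higher in KO, and their summed level was 474 to 507 CPM in WT and 3377 to 3650 CPM in KO, with *Gfap* at 0 counts in both WT libraries. Of 8 oligodendrocyte markers 7 were higher (130 to 154 CPM in WT, 597 to 625 in KO), and of 8 mural cell markers 7 (63.1 to 72.1 CPM in WT, 419 to 424 in KO), with the smooth muscle actin gene *Acta2* at 0 counts in both WT libraries. Of 5 oligodendrocyte precursor markers 1 was higher (1283 to 1339 CPM in WT, 1631 to 1707 in KO), and of the 6 tested microglia markers 1 (26.6 to 30.4 CPM in WT, 51.5 to 58.4 in KO). DESeq2 called 2 precursor and 2 microglia markers higher, where 1246 of all 16832 tested genes were. The replicate block called 4 and 3 higher, where 1625 of all tested genes were. The endothelial markers held no called gene among the 5 tested (smallest edgeR adjusted p = 0.107, 16.8 to 16.9 CPM in WT and 14.1 to 18.7 in KO, with 3 genes at an unadjusted p under 0.05 and 0 called by DESeq2). The summed level of the choroid plexus markers was 45.1 to 59.4 CPM in WT and 3.80 to 5.07 CPM in KO, which rested on *Ttr* (40.8 and 55.3 CPM in WT, 0.951 and 1.10 in KO), the 1 of 2 tested genes called lower, while *Kl* had a log2 fold change of 0.20. Erythroid markers, with 1 of 5 called lower, summed to 30.7 to 44.7 CPM in WT and 18.9 to 19.2 CPM in KO.

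Neuronal markers outside the release machinery were read in the same fit. Of 15 genes carried by neurons in general, 2 were called lower (*Elavl4* and *Stmn2*), where 0.570% of all tested genes were, none was higher, and 14 had a log2 fold change below 0, with a median of -0.44. The count of lower genes was 4 with DESeq2, where 1.47% of all genes were lower, and 5 with the replicate block, where 3.68% were. Their summed level was 9575 and 9079 CPM in WT and 6846 and 6994 CPM in KO. The 11 markers of GABAergic and preoptic neurons had a median of -0.29. The genotypes overlapped for 5 of them, near the share over all tested genes (7835 of 16832). None of the 11 was called (smallest edgeR adjusted p = 0.168, with 3 genes at an unadjusted p under 0.05 and 0 called by DESeq2). The summed level of the 30 release genes reached 3193 and 3059 CPM in WT against 2665 and 2879 CPM in KO. The summed levels of the release genes and of the general neuronal markers were each lower in both KO libraries. The part of these markers in the values of *Vamp1*, *Syt1*, *Syt4* and the further genes was not tested, and cell composition and genotype cannot be told apart in these pools.

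**Figure D5:**
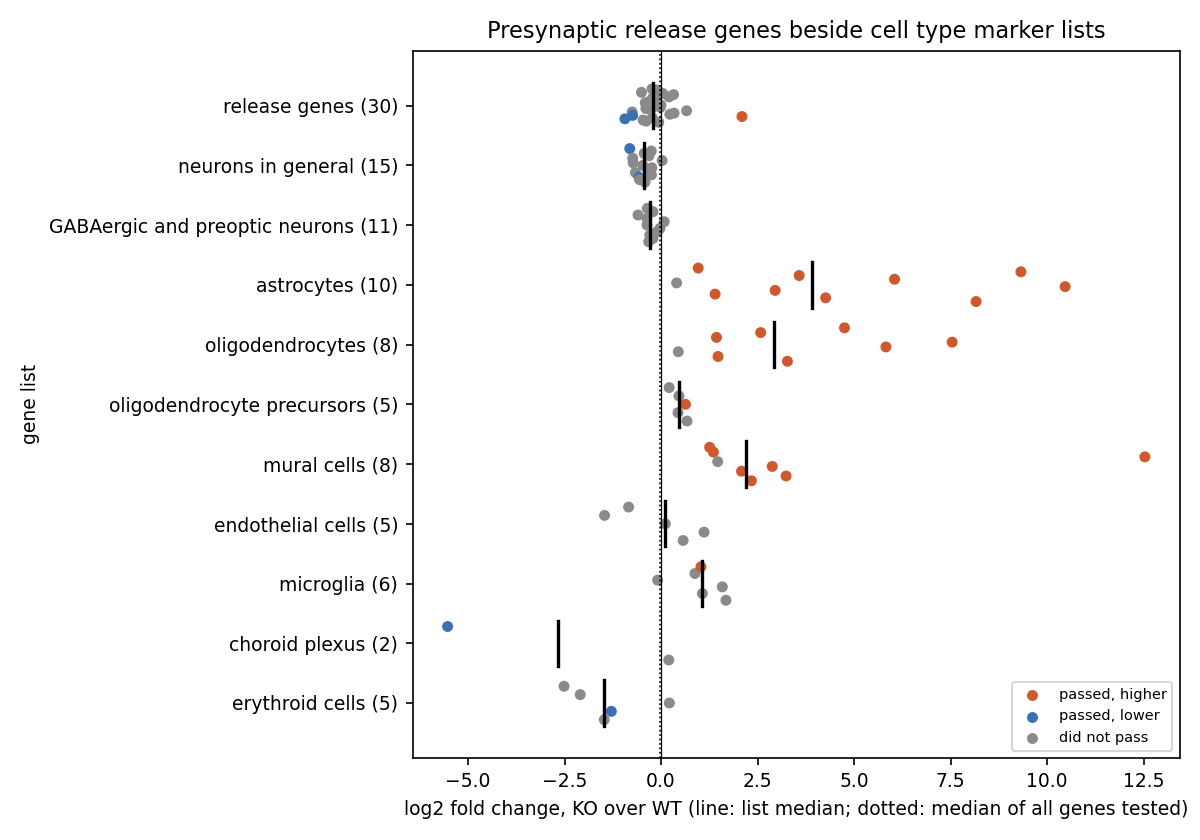
Log2 fold change of the 30 release genes beside marker lists of neurons and of other cell types, each point 1 gene and each black line a list median, with the number of tested genes in brackets. The list medians are -0.21 for the release genes and -0.44 and -0.29 for the neuronal lists, whose differences were not tested, while astrocyte, oligodendrocyte and mural cell markers lie to the right.

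The release genes have long transcripts, with a median exonic length of 7041 bases against 4020 over all tested genes, and a GC content close to that of all genes (49.2% against 49.0%). *Unc13b* and *Pclo* have the longest annotated exons with 22746 and 22457 bases. Shares and RPKM use the union of annotated exons, so that a gene which uses only a part of them is underestimated.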

How the data were processed

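RNA of sorted tdTomato-positive cells was measured in 4 libraries, 2 *Dnmt1* WT and 2 *Dnmt1* KO. The files the authors deposited hold raw counts of reads for each Ensembl gene. Per the submitters' processing notes, CASAVA 1.8.2, STAR 2.5.2a and featureCounts 1.5.0-p1 were used with mm10 (GRCm38). The annotation release and strand setting are not given in the sources used here. Of 55573 identifiers, 55480 were matched to GENCODE M21 (GRCm38). Groups and replicate numbers came from the sample labels.

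After edgeR's filter on low counts 16832 genes were left, which were scaled with TMM and compared with edgeR's quasi-likelihood test (edgeR 4.0.16, R 4.3.3), with genotype as the only term and Benjamini-Hochberg adjustment over all tested genes at 0.05. Standard errors and 95% intervals were derived from the test statistic. Percentiles refer to tested protein-coding genes. Tested on simulated counts with known changes of 2 on the log2 scale (16230 genes), edgeR recovered 77.0% with 5.52% of calls false, and DESeq2 77.5% with 8.82%. Members, gene lists and tests were chosen with earlier results of these data known. The genes named were all 30 release genes, *Dnmt1*, and for each group of further genes up to 4 called genes with the largest absolute log2 fold change. *Dnajc6*, *Cplx3*, *Cplx4*, *Sncg*, and the marker and overlapping genes given were named after their values were seen. Alternatives were DESeq2 1.42.0, other scalings, no filter, the replicate block, a length and GC correction (mgcv 1.9.3), removal of mitochondrial and rRNA-like genes, and leaving out each library.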

Additional observations from a re-analysis of the deposited data

How the results depend on the processing

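*Vamp1* passed in all 12 alternatives, and *Syt1* and *Syt4* in the 8 on all libraries. Of the 30 genes, 2 were lower and 1 higher. With the replicate number as a block, 4 were lower (*Snap25* and *Syp* added), as with the block and the length and GC correction together, where 2 were higher (*Pclo* added). Of all tested genes, 3.68% were lower with the block and 5.69% with both, beside 0.570% in the main fit. Same-numbered libraries deviated together with a correlation of 0.159 across genes, but share only a number by the labels. When 1 library was left out, the other library of that genotype being assumed to vary like the rest, 1 to 6 were lower (6 without WT replicate 2, with *Napb*, *Snap25*, *Synj1* and *Syp* added, 4 without WT replicate 1, and 1 without either KO replicate) and 1 to 2 higher. The WT pair varied more than the KO pair (biological coefficient of variation 0.234 against 0.103), so that fits without a KO library took their spread from the more variable pair and fits without a WT library from the less variable one. *Snap25* also passed with DESeq2 (adjusted p = 0.0130), with DESeq2's size factors (0.0428) and without a filter (0.00151), and its adjusted p was 0.0119 with the block. The fit without a filter gave each gene the spread of genes of like level and none of its own.

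Of the 84 further genes, 1 was lower. This count was 4 with DESeq2, 0 with library size only (edgeR, 18 of the 84 at an unadjusted p under 0.05), 7 without a filter, 10 with the replicate block, 13 (15.5%, against 4.55% of all genes) with the length and GC correction, 15 with both, and 0 to 19 when a library was left out (19 without WT replicate 2, 13 without WT replicate 1, 0 without either KO replicate). Over all tested genes, 1233 were higher and 96 lower. The lower genes were 247 with DESeq2, 573 without a filter, 619 with the block, 766 with the correction, 957 with both, and 51 (without KO replicate 2) to 2180 (without WT replicate 2) when a library was left out. The higher genes were 1930 with the correction, 2095 with both, and 900 to 2578 when a library was left out. The prior degrees of freedom set how far the spread of each gene is drawn to that of all genes. They were 6.05 in the main fit, 8.66 with the correction, 12.5 with the block, 25.3 with both and infinite without a filter. Their part in these shifts was not tested, nor was any other cause.

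The sign changed for 7 genes near 0, none of which passed. With library size only, which moved the median of all genes from -0.03 to 0.08 and that of the 30 genes from -0.21 to -0.10, *Dnm1* was 0.104, *Syn3* 0.0453, *Syt11* 0.0479 and *Unc13a* 0.0853. *Dnm1* was 0.0012 without a filter, and *Syn3* 0.0395 with the correction and 0.0378 with the block as well. When a library was left out, *Dnm1* ranged from -0.0797 to 0.0845, *Sv2a* from -0.319 to 0.0124, *Sv2c* from -0.156 to 0.237, *Syn1* from -0.436 to 0.0115, *Syn3* from -0.184 to 0.0305, *Syt11* from -0.120 to 0.0138 and *Unc13a* from -0.127 to 0.0796. Depth limits *Syt2*, *Sv2b* and *Sh3gl2*, which had under 100 counts in every library.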
